A study of Mus musculus with 141 samples.

Results

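Transcripts of Spi1, which encodes the transcription factor PU.1, and of 7 interferon regulatory factor genes, Irf1, Irf2, Irf3, Irf4, Irf5, Irf8 and Irf9, were followed through single mouse bone marrow progenitors. The 8 genes were chosen by name and matched to their Ensembl identifiers among 46041 nuclear-encoded gene rows of the count table, and all 8 were found. The cells came from bone marrow of 3 female C57BL/6 mice, whose ages the labels do not give. Of these cells, 94 were BMCP, the basophil/mast cell progenitors, and 47 were GMP, the granulocyte/monocyte progenitors. Both sorts took live cells that were Lin-, cKit+ and Sca1-. BMCP were also integrin beta7hi and CD16/32hi, and GMP were CD34+ and CD16/32hi and lay outside the BMCP gate. No cell carries an added allele or treatment in the labels. Each cell is 1 library of reads from polyA RNA, and cells are named here by population and number as in the labels.

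PU.1 is a transcription factor of the ETS family that binds sites with a GGAA core and is needed for macrophage, neutrophil and B cell development. Its dose matters in the myeloid lineage, and it is known to oppose GATA factors such as GATA1. The IRF proteins share a DNA-binding domain that reads GAAA repeats. IRF3, IRF5 and IRF9 act downstream of innate immune and interferon receptors, IRF1 is induced by interferon, IRF2 competes with IRF1 for its sites, and IRF4 and IRF8 bind composite ETS and IRF sites together with PU.1. IRF8 is best known in bone marrow for the monocyte and dendritic cell lineages.

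After filters on depth and quality, 89 BMCP and 41 GMP were kept, with a median of 893037 nuclear-encoded counts per BMCP (range 96129 to 2416630) and 1309887 per GMP (range 130191 to 3688848). In summed level, all 9 genes of the BMCP marker list were at least 2-fold higher in BMCP. All 7 genes of the neutrophil progenitor list were at least 2-fold lower there. Single cells departed from this. Gata2, a factor of the mast cell lineage, reached 10 of 200000 reads in 17 of 40 GMP as well as in all 86 BMCP. Mcpt8, also on the BMCP list, reached that limit in 20 of 86 BMCP and 18 of 40 GMP. Its cell medians were 3.39 CPM in BMCP and 13.4 CPM in GMP, opposite to its summed levels of 680 and 137 CPM. Since cells cannot be assigned to the mice they came from, each population is 1 sample. Cells are not replicates, no test was made, and differences are given by size, with 95% limits that cover counting error only. GMP fill a single block of cell numbers and BMCP fill another pair, and the effects of block and population therefore cannot be told apart. BMCP cells 1 to 47 and 48 to 94 are also given separately. These blocks are read from the order of the table's columns, which the labels do not describe. Unaligned reads were 37.5% in the first of these blocks and 25.1% in the second.

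Of the 8 genes, Irf8 differed most between the populations, and the stretch just before its start is shown beside those of Irf1 and Irf2, the members whose windows hold the same kinds of motif. Each run is the 250 bases before the transcription start on the plus strand, from RefSeq on GRCm38.p6. Capitals mark the ETS core (GGAA, or TTCC for the other strand), the composite ETS and IRF motif GGAANNGAAA, the interferon-stimulated response element GAAANNGAAA and the STAT motif TTCNNNGAA, in which N is any base.

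Irf8, chr8:120736108-120736357: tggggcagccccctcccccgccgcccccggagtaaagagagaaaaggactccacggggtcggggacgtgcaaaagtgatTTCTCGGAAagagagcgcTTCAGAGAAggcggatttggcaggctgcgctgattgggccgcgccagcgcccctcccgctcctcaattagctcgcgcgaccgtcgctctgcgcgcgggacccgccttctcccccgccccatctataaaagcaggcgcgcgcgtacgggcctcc

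Irf1, chr11:53769764-53770013: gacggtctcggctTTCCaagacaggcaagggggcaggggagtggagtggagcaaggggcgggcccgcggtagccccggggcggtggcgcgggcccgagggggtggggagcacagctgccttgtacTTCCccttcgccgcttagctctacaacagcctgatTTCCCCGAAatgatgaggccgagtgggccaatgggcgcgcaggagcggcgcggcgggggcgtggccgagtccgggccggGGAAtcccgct

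Irf2, chr8:46739495-46739744: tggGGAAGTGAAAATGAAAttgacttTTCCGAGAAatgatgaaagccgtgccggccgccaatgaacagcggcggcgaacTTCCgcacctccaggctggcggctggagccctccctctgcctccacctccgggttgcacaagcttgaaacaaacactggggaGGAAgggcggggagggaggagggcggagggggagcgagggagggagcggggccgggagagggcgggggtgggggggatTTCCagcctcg

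The Irf8 window holds 2 matches to the STAT motif, 171 to 163 and 153 to 145 bases before the start, and the first of them contains its single GGAA. The Irf1 window holds 1 STAT match, 90 to 82 bases before the start, which overlaps a TTCC. The Irf2 window opens with a composite ETS and IRF match that runs into a response element match, 247 to 232 bases before the start, and a STAT match follows 224 to 216 bases before it. Among 32851 RefSeq windows of 250 bases, 7.02% held the STAT motif, 2.30% the composite, 2.98% the response element and 93.4% the ETS core, on either strand. The table holds 10 windows for the 7 Irf genes. The STAT motif was in 3 of the 10, the composite and the response element in 1 each and the PU.1 motif GAGGAAGT, found in 2.44% of all windows, in 0. The GATA motif AGATAA, found in 9.99% of all windows, was in 1, a window of Irf9. Irf8 and Irf1 each have another window, not shown, in which only the ETS core was found among these motifs. A match is a description of the letters and does not show binding.

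A filter of at least 1 CPM (the count of a gene scaled to 1000000 counts) in either population was passed by 7 of the 8 genes. Spi1 and Irf8 were at least 2-fold lower in BMCP, none was at least 2-fold higher and 5 were within 2-fold. Over all 14554 measured genes, 21% lay at least 2-fold lower, 25.8% at least 2-fold higher and 46.8% past 2-fold in either direction. The share of members past 2-fold was thus below that of all genes. What set members apart from each other was the size of the Irf8 difference and the way reads were spread over cells. With spike-in RNA as the scale, 43.3% of genes were lower and 15.5% higher, and the median log2 ratio of all genes moved from 0.04 to -0.79. The median share of spike-in reads was 11.3% for BMCP and 5.92% for GMP.

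**Figure D1:**
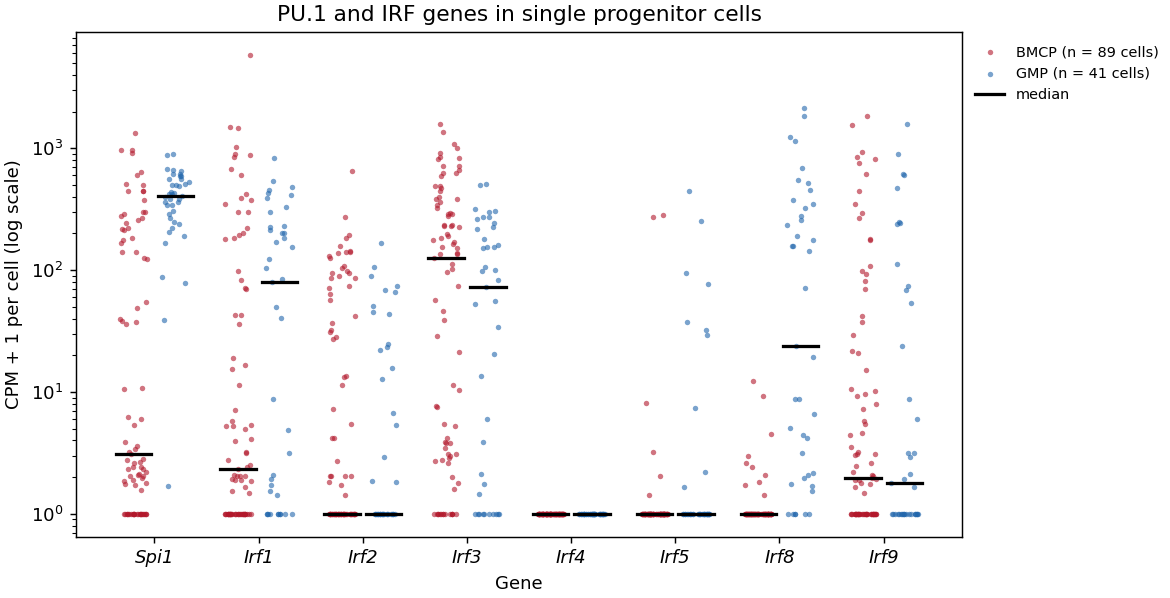
Level of each gene in each kept cell, as CPM + 1 on a log scale, for 89 BMCP and 41 GMP, with a bar at the population's median. Irf8 sits at or near 0 in BMCP and spreads over the whole scale in GMP, Spi1 is at 100 CPM or more in 37 of 41 GMP, and Irf4 has no read.

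Spi1 lies on chromosome 2 from 91082390 to 91115756 on the plus strand (GRCm38). Its level ran from 0 to 1335 CPM among BMCP, with a median of 2.12 CPM, and from 0.681 to 904 CPM among GMP, with a median of 403 CPM. GMP formed a nearly even group, in which 37 of 41 cells were at 100 CPM or more. BMCP were split, with 54 cells under 10 CPM, 6 between 10 and 100 CPM and 29 at 100 CPM or more. The populations overlapped: 11 of 89 BMCP were above the GMP median and 4 were above the highest GMP. Summed over cells, the Spi1 level of BMCP was 121 CPM (118 to 123) and that of GMP 410 CPM (405 to 415). The log2 ratio of BMCP over GMP, taken on CPM + 1 throughout, was -1.75.

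At equal read depth, the Spi1 difference was larger in the share of cells with at least 10 reads than in the level of those cells. After each cell was thinned to 200000 reads, at least 10 Spi1 reads were found in 29 of 86 BMCP, or 33.7% (23.9 to 44.7, exact Clopper-Pearson limits), and in 38 of 40 GMP, or 95% (83.1 to 99.4). Cells past that limit had a median of 279 CPM among BMCP and 419 CPM among GMP. With at least 2 reads the shares were 35 of 86 and 39 of 40. Thinning evens out reads but not the amount of RNA behind them. Counts per spike-in count were 7.48 in BMCP and 13.7 in GMP. A cell below the limit may therefore still have held the transcript, and the part of missed transcripts in these shares was not tested. The limit of 10 reads is given because a few reads of an abundant GMP transcript are seen in many BMCP: Mpo, the neutrophil granule enzyme myeloperoxidase, had at least 2 reads in 31 of 86 BMCP and at least 10 in 3. Whether such reads came from other libraries was not tested.

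The lower Spi1 level was present in both blocks of BMCP, at 164 CPM and a log2 ratio of -1.32 in cells 1 to 47 and 94.6 CPM and -2.10 in cells 48 to 94. The highest BMCP, cell 12, held 13.4% of the population's Spi1 reads. That cell also had 10061 CPM of Prss34, a basophil and mast cell protease, against at most 7.32 CPM in any other BMCP, the highest Mpo and Ctsg of the kept BMCP, and the lowest Gzmb, at 30.4 CPM. The lowest GMP, cell 24, differed from most GMP in lineage genes. Gata2 was at 1789 CPM, Gata1 at 473 CPM, Il1rl1, the IL-33 receptor of mast cells and basophils, at 733 CPM, and Mpo was at 509 CPM against a median of 29969 CPM among the others. GMP cell 20 had a like set of lineage genes, with Gata2 at 1068 CPM, Il1rl1 at 609 CPM and Mpo at 1038 CPM, and the second highest Spi1 of the GMP, at 882 CPM, so that these genes did not go with a low Spi1 level in both cells. These cells were singled out after their values were seen. Of the other cell types that use PU.1, a list of 4 B cell genes summed to 0 to 1079 CPM per BMCP (median 0.788) and 0 to 584 CPM per GMP (median 63.1), nearly all of it Cd79b (57.1 and 102 CPM), while Pax5 had 5 reads in BMCP and 0 in GMP. A list of 5 mature neutrophil genes had a median of 0 in both, up to 336 and 205 CPM. Their part in the Spi1 difference was not tested.

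**Figure D2:**
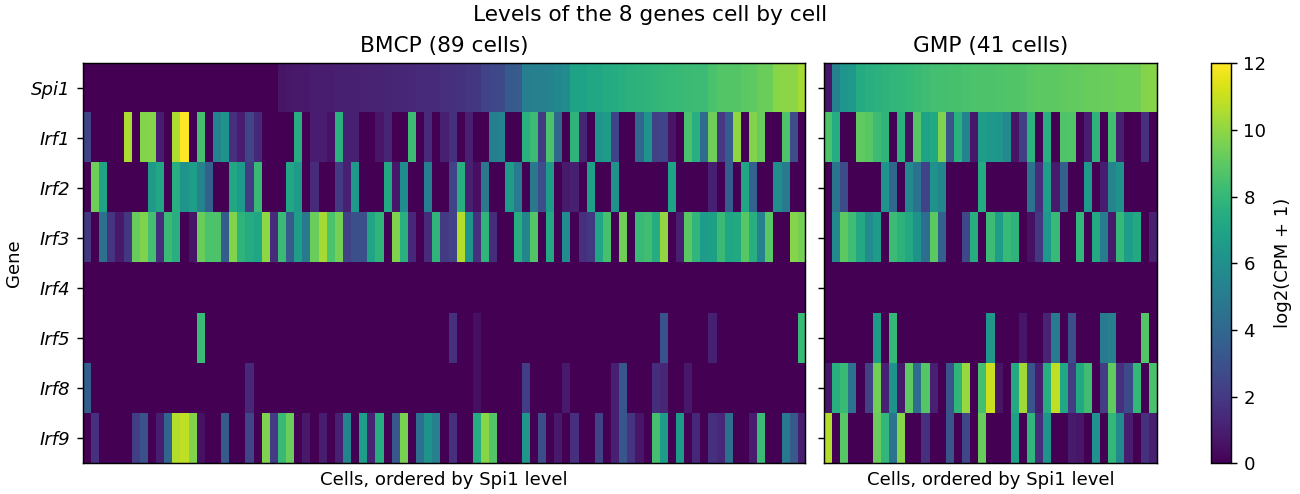
Levels of the 8 genes in each cell as log2(CPM + 1), with cells as columns ordered by their Spi1 level in 89 BMCP and 41 GMP. The Irf8 row is almost empty in BMCP, and most cells hold only some of the Irf genes.

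Irf8 lies on chromosome 8 from 120736358 to 120756694 on the plus strand. In BMCP it had 17 reads in 10 of 89 cells, 0.202 CPM (0.118 to 0.323), and cell values ran from 0 to 11.4 CPM with a median of 0. In GMP it had 15213 reads in 35 of 41 cells, 274 CPM (270 to 278), and cell values ran from 0 to 2125 CPM with a median of 22.9 CPM. No BMCP was above the GMP median, while 22 of 41 GMP were above the highest BMCP. The level was 1358-fold higher in GMP (848 to 2331 from the counts), a log2 ratio of -7.84 for CPM + 1, and 0.062% of measured genes had a lower ratio.

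Among GMP, Irf8 was close to on or off. Of 41 cells, 19 were under 10 CPM, 3 were between 10 and 100 CPM and 19 were at 100 CPM or more. This split was not particular to Irf8, as Irf1 had 18, 4 and 19 GMP in the same ranges. At equal depth 20 of 40 GMP (50.0%, 33.8 to 66.2) and 0 of 86 BMCP had at least 10 reads, and 24 of 40 and 0 of 86 had at least 2. A count of 0 of 86 allows a share of up to 3.49% by a floor of 3 cells and 4.199% by the exact upper limit. The 4 GMP at 1000 CPM or more, cells 28, 37, 18 and 1, held 51.3% of the GMP reads, and the remaining GMP were at 146 CPM together. These 4 cells had 380 to 511 CPM of Spi1, near the GMP median for that gene.

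The few BMCP reads of Irf8 were uneven. BMCP cell 1 held 8 of the 17, and the level without it was 0.108 CPM. The same cell had the highest Lyz2, lysozyme, of the kept BMCP, at 541 CPM, and 0 reads of Spi1. Its mast cell and basophil genes went both ways. Cpa3, a carboxypeptidase of mast cells, reached 5807 CPM, above the median of 2718 CPM among the other BMCP. Kit at 17.1 CPM and Il1rl1 at 4.27 CPM were far below the medians of those cells, 1061 and 153 CPM. Gata2 at 505 CPM and Gzmb at 2985 CPM were also below theirs, 1926 and 5576 CPM. Over the list of 4 mature macrophage or monocyte markers, 3 were measured and all 3 were at least 2-fold lower in BMCP, and their sum per cell ran from 0 to 148 CPM in BMCP and from 0 to 763 CPM in GMP, with a median of 0 in both. These calls rest on few GMP. C1qb was at 23.7 CPM in GMP but 0.0559 CPM without GMP cell 29, below the 1.21 CPM of BMCP. C1qa was at 5.26 CPM, or 1.90 CPM without GMP cell 4, and Cd14 reached 10 reads in 2 GMP. The part of these markers in the Irf8 reads was not tested.

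Irf4, the closest relative of Irf8, lies on chromosome 13 from 30749226 to 30766976 and had 0 reads in all kept cells. A floor of 3 reads allows up to 0.0356 CPM for BMCP and 0.0540 CPM for GMP, and the exact upper limits were 0.0438 and 0.0664 CPM. At equal depth a floor of 3 cells allows a share of up to 3.49% of BMCP and 7.50% of GMP, and the exact upper limits were 4.199% and 8.81%.

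**Figure D3:**
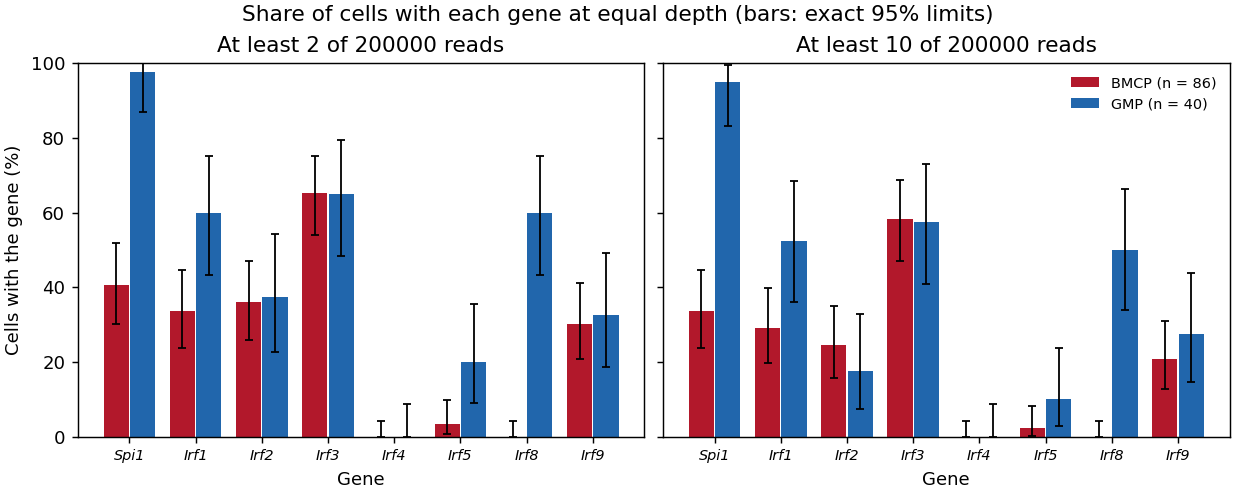
Share of cells in percent with at least 2 (left) or at least 10 (right) of 200000 reads of each gene, for 86 BMCP and 40 GMP, with exact 95% limits for counting error. The intervals of the populations are apart for Spi1 and Irf8 at both limits and overlap for the other Irf genes.

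Irf3, the constitutive factor that TBK1 activates downstream of nucleic acid sensors, was the most widely found Irf gene in BMCP (chromosome 7, 44997648 to 45002848). It ran from 0 to 1565 CPM among BMCP with a median of 126 CPM, and from 0 to 507 CPM among GMP with a median of 71.7 CPM. At least 10 reads were found in 50 of 86 BMCP (58.1%, 47.0 to 68.7) and 23 of 40 GMP (57.5%, 40.9 to 72.96). The pooled BMCP share lay between those of its blocks, 19 of 43 cells (44.2%, 29.1 to 60.1) in BMCP 1 to 47 and 31 of 43 (72.1%, 56.3 to 84.7) in BMCP 48 to 94, on either side of the GMP share. In level, 14 BMCP exceeded the highest GMP. The summed levels were 233 CPM for BMCP and 132 CPM for GMP, with a log2 ratio of 0.82. This value differed between blocks, at 0.26 for BMCP 1 to 47 and 1.07 for BMCP 48 to 94, where the cell medians were 4.31 and 177 CPM. With spike-in scaling it was -0.05. A stretch of 88 exon bases, 2.56% of the gene's, is shared with Bcl2l12 on the other strand. Reads held ambiguous between genes were left out of the counts, and how many came from this stretch is not known.

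Irf9, the DNA-binding part of an interferon-activated complex (chromosome 14, 55603571 to 55610030), was in fewer cells. It ran from 0 to 1835 CPM in BMCP and from 0 to 1587 CPM in GMP, with medians of 0.982 and 0.804 CPM, so the typical cell of either population had next to none. At least 10 reads were found in 18 of 86 BMCP and 11 of 40 GMP. Summed levels were 98.3 and 134 CPM, a log2 ratio of -0.45. GMP cell 24 alone gave 31.3% of the GMP reads, and without it the ratio was 0.05. Between blocks of BMCP the level was 161 and 60.4 CPM, with ratios of 0.26 and -1.14. The sign of the Irf9 ratio thus turned with the block and with this cell.

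Irf1, an interferon-induced activator (chromosome 11, 53770014 to 53778374), was at nearly the same summed level in both populations, 147 CPM for BMCP and 158 CPM for GMP, with a log2 ratio of -0.10. The cells behind these sums were spread differently. BMCP ran from 0 to 5802 CPM with a median of 1.35 CPM, and GMP from 0 to 830 CPM with a median of 78.6 CPM. At least 10 reads were found in 25 of 86 BMCP (29.1%, 19.8 to 39.9) and 21 of 40 GMP (52.5%, 36.1 to 68.5). Cells past that limit had a median of 347 CPM among BMCP and 223 CPM among GMP, and 7 BMCP exceeded the highest GMP. BMCP cell 41 was the highest for Irf1 and for Irf9, and its 1913 Irf1 reads were 15.4% of the BMCP total. The mean of the cells' CPM gave a ratio of 0.36, opposite in sign to the ratio of sums. The near-equal sums also pooled blocks of BMCP that differed in sign. The level was 195 CPM with a log2 ratio of 0.30 in BMCP 1 to 47. In BMCP 48 to 94 it was 119 CPM, with a ratio of -0.41.

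Irf2, which binds the same sites as Irf1 and mostly represses (chromosome 8, 46739732 to 46847458), was scarcer. It ran from 0 to 656 CPM in BMCP and from 0 to 166 CPM in GMP, with a median of 0 in both. At least 10 reads were found in 21 of 86 BMCP and 7 of 40 GMP. Summed levels were 33.7 CPM (32.5 to 34.99) for BMCP and 18.1 CPM (17.03 to 19.3) for GMP, a log2 ratio of 0.86, which was 1.39 in the first block, 0.41 in the second and 0.02 with spike-in scaling.

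Irf5, which acts after Toll-like receptors in mature myeloid cells (chromosome 6, 29526625 to 29541871), was found in 6 of 89 BMCP and 10 of 41 GMP, from 0 to 284 CPM and from 0 to 447 CPM, with a median of 0 in both. Of 865 BMCP reads, 568 were in cell 50 and 289 in cell 12, 99.1% of them in all. The summed BMCP level was 10.3 CPM, or 3.62 CPM without cell 50 and 0.0986 CPM without both cells, against 15.9 CPM in GMP. The log2 ratio was -0.59 and reached -3.94 without both cells. Of its exon bases, 411 (14.1%) overlap Tnpo3 on the other strand, with 73.7 CPM for BMCP and 140.7 CPM for GMP, and the counts do not part the genes there.

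**Figure D4:**
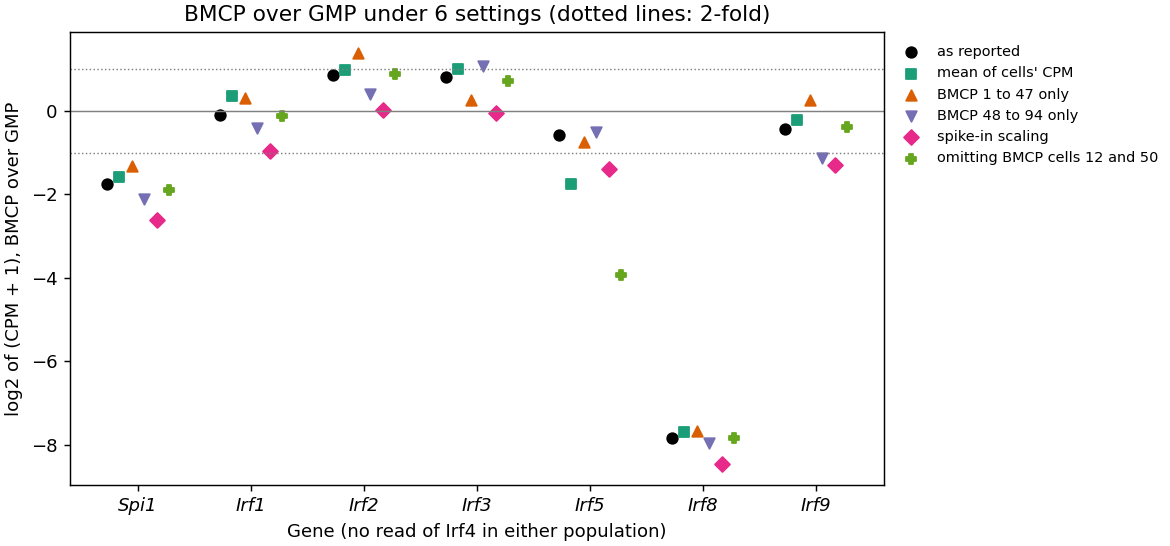
Log2 ratio of BMCP over GMP, as CPM + 1, for the 7 genes with reads under 6 settings, with dotted lines at 2-fold. Spi1 and Irf8 stay below the lower line under every setting drawn, Irf5 drops to -3.94 without BMCP cells 12 and 50, and Irf1, Irf3 and Irf9 lie on both sides of 0.

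To compare genes with each other, summed CPM was divided by the length of each gene's longest coding transcript in kilobases. In BMCP the order of the Irf genes was Irf3 at 115, Irf1 at 69.01, Irf9 at 33.2, Irf2 at 13.5, Irf5 at 4.58, Irf8 at 0.0709 and Irf4 at 0 CPM per kilobase. Irf3 made up 48.8% of the summed Irf level over both blocks. In BMCP 1 to 47 alone, Irf1 at 91.2 CPM per kilobase stood above Irf3 at 78.1, and in BMCP 48 to 94 Irf3 led with 137 against 55.6. In GMP the order was Irf8 at 96.2, Irf1 at 73.8, Irf3 at 64.9, Irf9 at 45.4, Irf2 at 7.26, Irf5 at 7.10 and Irf4 at 0 CPM per kilobase. Over cells the middle ranges of neighbours in either order overlapped, as for Irf3 (1.02 to 169) and Irf1 (0 to 32.8 CPM per kilobase) in BMCP, so neighbouring ranks do not differ beyond the spread of cells. With all annotated exons as the length, Irf1 at 39.7, Irf8 at 38.8 and Irf3 at 38.3 CPM per kilobase could not be ranked apart in GMP. Spi1 was at 59.4 CPM per kilobase in BMCP, below Irf3 and Irf1, and at 202 in GMP, above all Irf genes. Its place in BMCP turned with the length and the block: over all annotated exons it was at 44.8 CPM per kilobase, above Irf1 at 37.1, and in BMCP 1 to 47 it was at 80.7, above Irf3.

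A single cell held only some of the genes. At 10 reads, BMCP had a median of 2 of the 8 genes (0 to 4) and GMP a median of 3 (1 to 6), and 9 of 86 BMCP had none. Spi1 and Irf8 were both present in 19 of 40 GMP, which follows from Spi1 being in 38 of them. In BMCP, Spi1 and Irf3 were both present in 18 of 86 cells and Spi1 and Irf1 in 11. Spearman's rho between pairs of members over 86 BMCP stayed between -0.19 and 0.23, and over 40 GMP between -0.36, for Irf1 and Irf3, and 0.22. These are weak values in sparse counts.

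GATA factors and members of the 8 genes were seen in the same cells in some pairs and not in others. In BMCP, Spi1 and Gata1 were both at 10 or more reads in 11 of 86 cells, with 29 positive for Spi1 and 23 for Gata1, where the product of the shares gives 7.76 cells. Spearman's rho for the pair was 0.27. In GMP the same pair had a rho of -0.25, with Spi1 present in 3 of the 4 cells with Gata1, and Spi1 was present in 16 of the 17 cells with Gata2. Spi1 was in 38 of 40 GMP, and the products of the shares give nearly these counts, 3.8 and 16.15 cells. Irf8, in 20 of 40 GMP, was present in 6 of the 17 cells with Gata2 and in 0 of the 4 with Gata1. There the products give 8.5 and 2 cells, and rho over 40 GMP was -0.28 with Gata2 and -0.50 with Gata1. Irf8 was found in 9 of 11 GMP with Ly86, which marks monocyte and dendritic progenitors, and in all 4 with Flt3, a cytokine receptor of early progenitors. It was in 10 of 15 with Csf1r, the M-CSF receptor, and in 17 of 29 with Cebpa, a granulocyte and monocyte factor. For Csf1r and Cebpa the products give 7.5 and 14.5 cells. Cells of a population share their preparation, so these values describe these cells only.

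The 5 genes whose levels over 40 GMP were most like Irf8 were Npm1 (rho 0.61), Ninj1 (0.61), Ly86 (0.60), Sla (0.58) and Emb (0.58), among 6773 genes ranked. Pearson's correlation kept 3 of them, Npm1, Ly86 and Sla. For Spi1 the 5 were Aldoart1 (0.59), Cops2, Mrpl17, Nbeal2 and Pigk, and Pearson's correlation kept 0 of them. For Irf1 they were Heg1 (0.61), Psmc1, Mpv17l2, Jak1 and Abi1, and for Irf3 Gemin5 (0.57), Mrps11, Sh3bgrl, Pef1 and Stt3a. In BMCP only Irf3 was common enough, with Stau1 (0.34), Ankra2, Cenpx, Lpin1 and Ssb over 86 cells and 4531 genes. All are the extremes of a large number of correlations.

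Other ETS genes and the listed partners and regulators of PU.1, which include factors that oppose it, differed in both directions. The counts of each list below stand beside 25.8% of all measured genes at least 2-fold higher in BMCP and 21% at least 2-fold lower. Of 14 other ETS genes measured, 6 were at least 2-fold higher in BMCP, 1 was lower and 7 were within 2-fold, with a median log2 ratio of 0.89 against 0.04 over all genes. Elf4 was at 177 CPM against 51.6 CPM in GMP, Erg, an early progenitor factor, at 48.5 and 13.1 CPM, and Etv6 at 67.7 and 141.1 CPM. Spib, a close relative of Spi1, had no read. Of 15 partners and regulators of PU.1, 9 were higher, 5 lower and 1 within 2-fold, with a median of 1.88. Those higher included Gata2 (2083 and 282 CPM), Runx1 (813 and 166 CPM), which acts on the Spi1 enhancer, Ikzf1 (899 and 244 CPM) and Id2 (1060 and 3.73 CPM, or 1.51 CPM in GMP without GMP cell 16). Those lower were Cebpa (24.3 and 128 CPM), Cebpb, Cebpe, Myb and Gfi1.

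The 20 myeloid target genes of PU.1 lay the other way, with 13 at least 2-fold lower in BMCP, 1 higher and 6 within 2-fold, and a median of -1.67. Csf1r had 4 reads in BMCP and 121 CPM in GMP, Csf3r, the G-CSF receptor, had 3 reads and 105 CPM, and Cd68, a lysosomal protein of phagocytes, was at 6.49 and 82.1 CPM. Some of the lower calls rest on few GMP. Fcgr1 had 0 reads in BMCP and was at 11.5 CPM in GMP, but at 0.0373 CPM without GMP cell 29. Cd14 reached 10 reads in 2 of 40 GMP, and Cybb and Tlr4 in 3 each. Not all targets were low: Itgb2, the beta chain of leukocyte integrins, was at 189 and 64.7 CPM (33.9 CPM without GMP cell 3), Laptm5 at 1396 and 855 CPM and Tyrobp at 696 and 393 CPM. The list holds Mpo, Elane and Csf3r, which are also on the neutrophil progenitor marker list.

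Of 15 monocyte and dendritic cell genes tied to IRF8, 8 were measured, 2 were at least 2-fold lower in BMCP, 3 higher and 3 within 2-fold, with a median of 0.49, or -0.32 with spike-in scaling. Over all measured genes, 21% were lower and 25.8% higher. Ly86 had no read in BMCP and was at 75.9 CPM in GMP, and Flt3 was at 0.154 and 19.6 CPM, or 0.0481 CPM without BMCP cell 6 and 11.9 CPM without GMP cell 18. Cx3cr1, the fractalkine receptor, was higher in BMCP, at 293 CPM against 14.9 CPM, or 4.66 CPM without GMP cell 30, opposite to Irf8. Prdm1 was at 7.62 and 0.018 CPM, but at 0.922 CPM without BMCP cell 42, below the filter of 1 CPM. Tcf4 was at 119 and 53.6 CPM, or 102 CPM without BMCP cell 50. Without cell 50, 2 genes of the list were at least 2-fold higher. Cd74, Ciita, Batf3 and Siglech, which mark antigen-presenting or plasmacytoid dendritic cells, had no read in either population.

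Of 18 measured receptors, kinases and adaptors that act before the IRF proteins, 4 were at least 2-fold higher in BMCP, 3 lower and 11 within 2-fold, with a median of 0.26. These counts were near the shares of all measured genes, 25.8% higher and 21% lower. Janus kinase genes stood at the higher end, with Jak2 at 197 and 37.3 CPM, Tyk2 at 121 and 43.8 CPM and Jak1 at 491 and 204 CPM. The receptor chains differed in direction, Ifnar1 at 142 and 70.5 CPM and Ifnar2 at 59.7 and 127 CPM. Ikbke, a kinase of IRF3, was at 4.72 CPM (2.63 CPM without BMCP cell 16) and 59.7 CPM, while Tbk1, the other such kinase, was at 67.2 and 68.5 CPM. Spike-in scaling gave a median of -0.61 for this list.

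Of 22 interferon-stimulated genes, 8 were at least 2-fold higher in BMCP, 4 lower and 10 within 2-fold, with a median of 0.47, and this count rests on a single cell. BMCP cell 50 was the highest BMCP for 13 of the 22 and held over 50% of the BMCP reads for 9 of them. Over 21 of the genes, leaving out B2m, its summed level was 22804 CPM. The next BMCP was at 6391 CPM and the BMCP median was 1124 CPM. The GMP ran from 524 to 4358 CPM with a median of 1793 CPM. Without cell 50, 20 of the genes were measured, 10 were lower and 4 higher, with a median of -0.93. With cell 50 kept, other settings also gave medians below 0, -0.11 with the mean of cells' CPM, -0.15 after thinning and -0.21 with spike-in scaling, and BMCP 1 to 47, which lack that cell, gave -0.86. Mx1, for example, had 2932 of its 2943 BMCP reads in that cell and none in GMP.

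Of the 5 other IRF family genes and IRF2-binding cofactors, 3 were at least 2-fold higher in BMCP and 2 within 2-fold, with a median of 1.25. Irf7, the interferon-induced partner of IRF3, was at 68.98 CPM in BMCP, against 18.7 CPM in GMP, and at 36.7 CPM without BMCP cell 50, a log2 ratio of 0.93, which is within 2-fold. Irf2bpl was at 29.1 and 0.576 CPM (0.258 CPM without GMP cell 31), and Irf2bp1 at 51.5 and 21.1 CPM. Each list held 0 to 2 measured genes with no read in 1 of the populations, all away from the list's median. Setting them at the counting floor could not move a median, so it does not show how stable the medians are. The lists were chosen with earlier results of these data known, and their medians are descriptions.

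**Figure D5:**
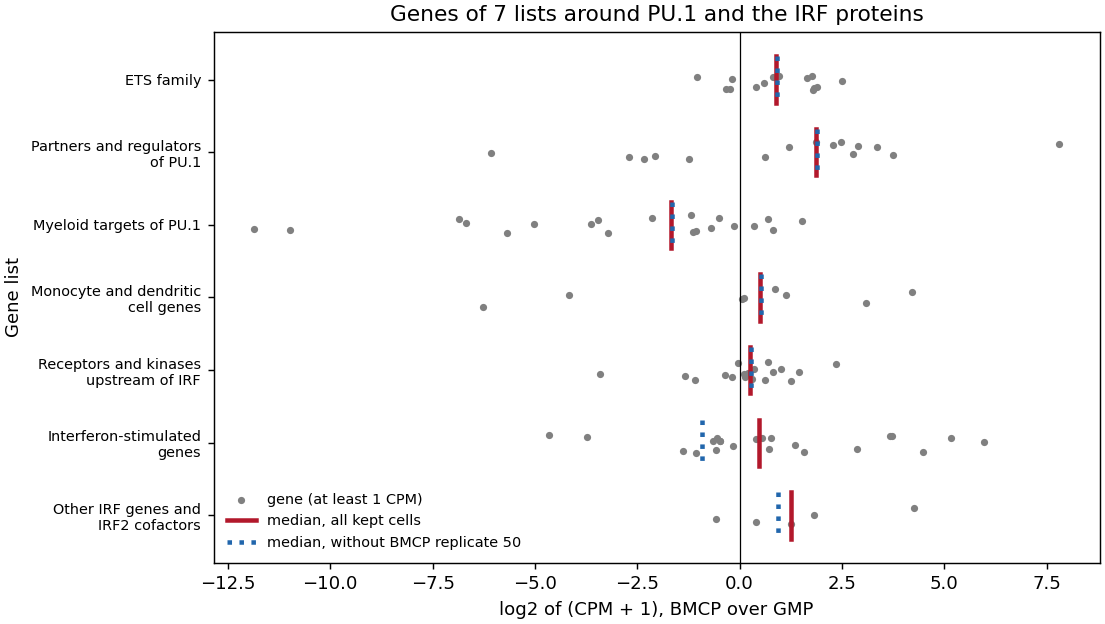
Log2 ratio of BMCP over GMP, as CPM + 1, of each measured gene in 7 lists, with the list's median over all kept cells (solid) and without BMCP cell 50 (dotted). The median of the myeloid targets of PU.1 lies at -1.67, and only the interferon-stimulated list changes side, from 0.47 to -0.93, without cell 50.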

How the data were processed

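Per the labels' protocols, single cells were sorted into plates, polyA RNA was primed with oligo-dT and ERCC spike-in RNA was present through the 23 PCR cycles, and libraries were read as single ends of 50 bases. The deposited table gives read counts that are not normalized, made by the authors with GSNAP and HTSeq 0.5.3p3 on mm10, per the submitters' processing notes. The release of their annotation was not given in the sources used here. Reads are not independent molecules, since no molecular identifiers are named, and no strand is marked.

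HTSeq's rows for no feature, ambiguous and unaligned reads held 15.3%, 4.57% and 29.4% of the kept cells' reads and stayed out of all totals. Symbols, coordinates and lengths are from GENCODE vM21 on GRCm38, which named 45143 of 46078 gene rows, 37 of them mitochondrial. Cells were kept with at least 50000 nuclear-encoded counts, 1000 genes, at most 10% mitochondrial counts and at most 50% spike-in reads, leaving out 11 cells. Identical counts were found in 0 pairs of cells. Values were compared as log2 ratios of (summed CPM + 1), BMCP over GMP, with exact Poisson limits at 95%, and a gene was measured at 1 CPM in either population. Shares of cells were taken after thinning to 200000 reads, which kept 86 BMCP and 40 GMP. Doublets were not called, as cells were sorted singly. No test was run, because each population is 1 sample.

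The members and lists were chosen with earlier results of these data known. Named genes are all members, list genes, and the 5 genes with the highest Spearman rho for members with 2 reads in at least 50% of a population's cells, among genes at 20 CPM in 25% of its cells. A few genes of the lists are not reported here and stay out of the counts, sums and medians of their lists. Alternatives concerned scaling, pseudocount, filters on cells and genes, cell weights, block, depth and the detection limit. The steps were run on simulated counts, in which no gene was set on or off by cell. All 50 genes set 8-fold higher and all 50 set 8-fold lower were called. Of genes set 2-fold higher, 21 of 50 were called, and of those set 2-fold lower, 27 of 50. Calls near 2-fold are therefore uncertain. Scripts ran under Python 3.11.15 with scipy 1.17.1, numpy 2.4.6, pandas 2.3.3 and matplotlib 3.10.9.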

Additional observations from a re-analysis of the deposited data

How the results depend on the processing

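Spi1 and Irf8 were at least 2-fold lower in BMCP under all 16 alternatives, with log2 ratios of -2.62 to -1.32 for Spi1 and -9.83 to -4.80 for Irf8. Irf5 kept its sign and passed 2-fold in 7 of 16, while Irf1 changed sign in 4, Irf9 in 3 and Irf3 in 1, with spike-in scaling. Spike-in scaling gave 4 members at least 2-fold lower, 6360 genes lower and 2271 higher, against 3061 and 3752, and medians of -0.61 for the list of kinases, adaptors and receptors, -0.32 for the genes tied to IRF8 and -0.21 for the interferon-stimulated genes, each above 0 when scaled by total counts over all kept cells. The last median was also below 0 with the mean of cells' CPM (-0.11), thinning (-0.15) and BMCP 1 to 47 (-0.86). Members at least 2-fold higher numbered 1 with the mean of cells' CPM, 1 with BMCP 1 to 47, 1 with BMCP 48 to 94 and 2 after thinning, against 0. A pseudocount of 10 CPM gave 1447 genes lower and 1844 higher, and a filter of 10 CPM gave 2021 and 2426, the latter from fewer genes tested. Leaving out BMCP cells 12 or 50, or GMP cell 24, and the length over all annotated exons were chosen after seeing the data. Apart from the spike-in scaling and filters named, the cause of these shifts was not tested. No paired analysis was possible because each cell is 1 library, the labels do not say what the cell numbers that BMCP and GMP share stand for, and no test was run. Depth limits calls of absence: 3 reads correspond to 0.0356 CPM in all BMCP and 0.0540 CPM in all GMP.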

Other observations

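A small number of cells stood apart in interferon-related transcripts, and they were chosen after their values were seen. BMCP cell 50 had Ifit1 at 1625 CPM, against at most 4.61 CPM in any other BMCP, Ifit3 at 851 CPM against 2.05 CPM, Mx1 at 1393 CPM against 6.78 CPM, Rsad2 at 2703 CPM against 780 CPM and Usp18 at 2577 CPM against 1378 CPM. Ifit1, Ifit3, Mx1 and Rsad2 encode antiviral proteins, and Usp18 a brake on interferon receptor signalling. Among the members, that cell had Irf3 at 621 CPM, Irf1 at 347 CPM, Irf5 at 270 CPM and Irf7, outside the members, at 1330 CPM, the highest Irf7 of the kept BMCP, while Irf9 had 1 read and Spi1 and Irf8 had 0. Of its mast cell and basophil genes, Gata2 at 1251 CPM, Cpa3 at 2996 CPM and Gzmb at 3906 CPM were well inside the BMCP range, while Kit at 39.9 CPM and Il1rl1 at 0.950 CPM were far below the medians of the other BMCP, 1061 and 153 CPM. Its depth was 2104720 counts.

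BMCP cell 41 had the highest Irf1 and Irf9 of the kept BMCP, at 5802 and 1835 CPM, with Irf7 at 1083 CPM and Usp18 at 413 CPM, but 0 reads of Ifit1, Ifit3, Mx1 and Rsad2. Its sum over 21 interferon-stimulated genes, 6391 CPM, was the next highest BMCP after cell 50. It also stood apart in lineage genes, with the lowest Cpa3 of the kept BMCP, at 94.03 CPM against a median of 2805 CPM among the others, Gzmb at 318 CPM against 5576 CPM and Kit at 143 CPM against 1061 CPM, and its depth was 329696 counts. GMP cell 24 had the highest Irf9 of the GMP, at 1587 CPM, and the highest Ifitm3, at 1366 CPM. Its sum over the 21 interferon-stimulated genes, 4358 CPM, was also the highest of the GMP. It had 0 reads of Ifit1, Ifit3, Mx1 and Rsad2. However, Ifit3 and Mx1 had no read in any kept GMP, and Rsad2 reached at most 10.8 CPM, so these zeros do not set the cell apart. In BMCP cells 41 and 50, Irf9 and the Ifit genes were not high together. The cells with the highest Irf9, BMCP cell 41 and GMP cell 24, were nonetheless among the highest of their populations in the 21-gene sum.

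GMP cell 29 was the highest GMP for C1qb, a complement gene of mature macrophages, at 707 CPM. Its Irf8 was 2.16 CPM and its Spi1 647 CPM, so the cell with the most C1qb was not an Irf8-high cell.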
